A study of Rattus norvegicus with 16 samples.

Results

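The coagulation and complement proteins of plasma are described here through the liver transcripts that encode them, in 21-day-old rat pups whose dams had been given mixtures of environmental contaminants. The set was a fixed list of 37 genes for liver-secreted clotting and complement proteins, matched to array probes by the RefSeq transcript number of the probe. Probes were found for 32 of the 37 genes, and all 32 passed the filter on dim signals and were tested, among 13146 transcripts in all. They were 17 of 20 clotting genes and 15 of 17 complement genes. F5, F11, F13b, C5 and C8g were not named through the transcript numbers and are not described. Gene names in the scan files were not searched, and 12363 of 30367 probes went without a symbol. The array may therefore hold probes for these genes. The matching rule uses no measured value, but the list was put together with earlier results of these data known.

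Hepatocytes make most of the clotting and complement proteins that circulate in blood. Clotting runs as a cascade of serine proteases that ends when thrombin turns fibrinogen into fibrin. Antithrombin and other inhibitors hold it in check, and plasmin dissolves the clot. Complement is a related cascade: antibody-bound C1 or mannose-binding lectin starts it, convertases split C3 and C5, and C6 to C9 assemble into a pore, the membrane attack complex. Several of these genes, fibrinogen and C3 among them, are acute-phase genes whose transcripts rise in liver during inflammation.

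Livers came from male Sprague-Dawley pups that stayed with their birth mothers. Dams were dosed through gestation and nursing. The C group received corn oil alone. The 0.5M and M groups received organochlorine pesticides, polychlorinated biphenyls and methyl mercury in corn oil, at 0.5 mg/kg/day and 1.0 mg/kg/day. The AhR group received agonists of the aryl hydrocarbon receptor (non-ortho polychlorinated biphenyls, dibenzodioxins and dibenzofurans) at 1.8 ng/kg/day in dioxin toxic equivalents. Each of the 4 groups had 4 arrays, and each array held the pooled RNA of 2 pups, 8 pups a group. The litters of the pups are not stated, so arrays of a group may share a litter, and p-values would then be too small. Every array carried liver RNA in Cy5 and a reference RNA from pooled rat cell lines in Cy3. A level below is log2 of liver over reference, and a difference between groups is a difference of 2 such levels. Bulk liver RNA cannot tell fewer hepatocytes from less transcript per hepatocyte.

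Between 7082 and 15686 of 30367 probes per array were well above background in the liver channel, with the fewest on array M 1. The arrays lay on 2 slides, with replicates 1 and 2 of every group on slide 1 and replicates 3 and 4 on slide 2. All 10 hepatocyte markers tested were well above background on all 16 arrays. Some arrays also carried markers of other tissues. All 11 skeletal muscle markers tested, of 20 listed, stood higher on M 2 and 0.5M 4 than on every other array, by a median of 5.14. Only 4 of 14 listed markers of exocrine pancreas and 4 of 9 of adipose tissue were tested. Of the 4 markers tested in each case, 2 of exocrine pancreas stood highest on M 1 and AhR 2, and 3 of adipose tissue on C 2. The exposure check was Cyp1a1, the classical target gene of the aryl hydrocarbon receptor. It was higher than in C by 4.58 in M, 3.74 in 0.5M and 2.46 in AhR (limma, adjusted p = 6.4e-10, 1.4e-08 and 7.2e-06).

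No clotting or complement gene differed between groups at an adjusted p under 0.05. This held for 0 of 32 genes in each of the 6 pairwise comparisons and in the F-test over the 4 groups (limma, Benjamini-Hochberg over all 13146 transcripts). Over all transcripts, 0.319% were called in M against C, 0.0152% in 0.5M against C, 0.00761% in AhR against C, 0.0152% in M against 0.5M, 0.259% in M against AhR, 0.0228% in 0.5M against AhR and 0.183% in the F-test. So few transcripts were called at all that 0 of 32 is near this background. The smallest adjusted p of any of the 32 genes was 0.221 in M against C, 0.655 in 0.5M against C, 1.00 in AhR against C and 0.438 in the F-test. At an unadjusted p under 0.05 there were 6 genes in M (18.75%, against 10.2% of all transcripts), 3 in 0.5M (9.375% against 6.55%) and 0 in AhR (against 3.73%). The F-test gave 3 (against 9.31% of all transcripts), namely Masp2, F7 and Klkb1.

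The differences were small, and most lay slightly below 0. The median over the 32 genes was -0.17 in M, -0.14 in 0.5M and -0.057 in AhR. Over all transcripts the medians were -0.0012, -0.0023 and 0.00047. Below 0 were 25 of 32 genes in M, 28 in 0.5M and 26 in AhR, where 50.4%, 50.9% and 49.8% of all transcripts lay below 0. All of these comparisons share the 4 C arrays, and the genes moved together from array to array, so the counts are not independent of each other. The medians were nearer 0 without array C 1, at -0.081 in M, -0.061 in 0.5M and -0.00074 in AhR. Within slide 1 the medians were -0.098, -0.15 and -0.069, and within slide 2 they were -0.19, -0.091 and -0.038. Without the 5 arrays that carried muscle, pancreas or fat markers, the median was -0.27 in M, -0.11 in 0.5M and -0.11 in AhR. M was then left with M 3 and M 4, both on slide 2, while every other group kept arrays of both slides.

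The 10 hepatocyte markers had a median difference from C of -0.082 in M, -0.032 in 0.5M and 0.089 in AhR, with 0 of 10 called in each. By array their median level ran from -0.24 to 0.068 in C, -0.15 to 0.31 in 0.5M, -0.37 to 0.60 in M and -0.089 to 0.70 in AhR. It was lowest on M 4, where 10 of the 32 genes also stood lowest, and at 0.60 on M 1, where 10 stood highest. Other arrays did not follow this: it was highest on AhR 1, at 0.70, where 2 genes stood highest. It was 0.31 on 0.5M 2, where 0 stood highest, and 0.048 on C 1, where 9 did. The 8 stellate cell markers had medians of 0.40, 0.13 and 0.052, with 0 called. Their array medians were 0.23 to 0.50 in C, 0.17 to 0.95 in 0.5M, 0.31 to 1.58 in M and 0.31 to 0.54 in AhR. The 1.58 was on M 2 and the 0.95 on 0.5M 4, the muscle-bearing arrays, and the stellate marker Des is also in the muscle list. The other M arrays were at 0.31, 0.44 and 0.36. The part of cell composition in the differences was not tested.

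The 95% intervals of single genes were not adjusted for the number of genes. They would be too narrow if arrays of a group shared a litter. They hold for the processing used here, and median centring of the ratios moved the M median to -0.44. The median 95% interval reached 0.31 to either side of a difference. It lay wholly within 2-fold of no difference for 31 of 32 genes in M, the exception being Klkb1, and for all 32 in 0.5M and in AhR. It lay within 1.5-fold for 26, 25 and 30 genes.

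**Figure D1:**
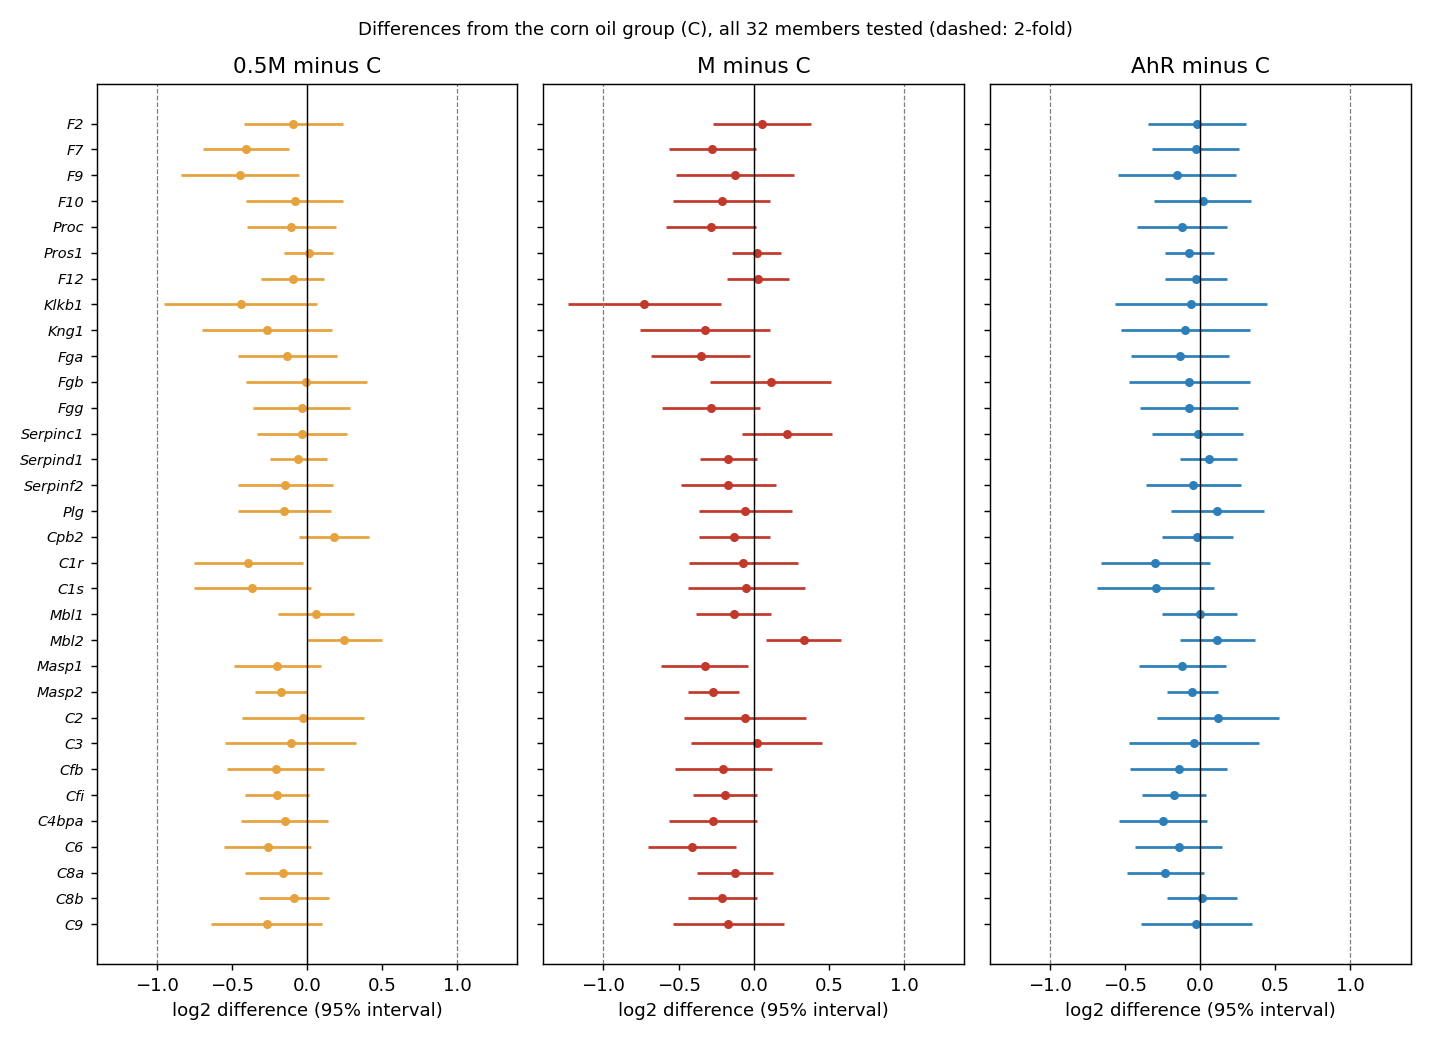
Difference from the corn oil group (log2, horizontal axis) for each of the 32 genes in 0.5M, M and AhR. Points are estimates and lines their 95% intervals, with dashed lines at 2-fold. Most points lie slightly left of 0, and the Klkb1 interval in M is the only one that crosses a dashed line.

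The vitamin K dependent proteins are the proteases and cofactors whose glutamate residues are carboxylated so that they bind membranes. They are prothrombin (F2), factors VII, IX and X (F7, F9, F10), protein C (Proc) and its cofactor protein S (Pros1). In M, 4 of the 6 tested stood below C with a median of -0.17. In 0.5M it was 5 of 6 with a median of -0.098, and in AhR 5 of 6 with a median of -0.050. None passed the test.

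F7 (NM_152846), the protease that starts clotting together with tissue factor, had the smallest p of the set in 0.5M. Its levels were 0.85, 0.32, 0.34 and 0.40 on C replicates 1 to 4 and 0.21, 0.077, 0.17 and -0.17 on the 0.5M replicates. All 4 of the 0.5M arrays lay below all 4 C arrays, which was the case for 1 of 32 genes and for 1.61% of all transcripts. The difference was -0.41 (95% interval -0.70 to -0.12, adjusted p = 0.655), and without C replicate 1, the highest C array, it was -0.27. In M the levels were -0.025, -0.011, 0.43 and 0.42, with the slide 1 pair below every C array and the slide 2 pair within the C range. In AhR they were 0.38, 0.53, 0.41 and 0.47, all within the C range.

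F9 (NM_031540) encodes the factor IX that is missing in haemophilia B. It stood at 0.67, -0.18, -0.30 and -0.024 in C, where replicate 1 was far above the other arrays, and at -0.35, -0.32, -0.30 and -0.66 in 0.5M. The difference was -0.45 (-0.84 to -0.054, adjusted p = 0.739), and without C replicate 1 it was -0.22. The F9 levels were -0.18, -0.45, 0.28 and 0.030 in M and -0.11, -0.16, 0.019 and -0.19 in AhR, and both groups overlapped C. Proc stood lowest of this class in M, at -0.28 (adjusted p = 0.514).

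The contact pathway starts clotting on charged surfaces through factor XII (F12), plasma prekallikrein (Klkb1) and high molecular weight kininogen (Kng1). Klkb1 (NM_012725), whose protease also frees bradykinin from kininogen, had the widest difference of the whole set. Its levels were -0.19, 0.0079, -0.99 and -0.076 in C and -1.53, -0.72, -0.64 and -1.27 in M. C 3 lay among the M arrays, so the groups overlapped. The difference was -0.73 (-1.23 to -0.22, adjusted p = 0.263). It was -1.03 within slide 1 and -0.42 within slide 2. It was -0.36 once the 5 arrays that carried markers of other tissues were left out, with M 3 and M 4 kept in M. The Klkb1 levels in 0.5M were -0.34, -0.83, -1.02 and -0.84, at a difference of -0.44, and in AhR 0.23, -0.59, -0.65 and -0.50, at -0.062. The difference in M was -0.32 for Kng1 and 0.031 for F12, neither past the test.

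Fibrinogen is built from an alpha, a beta and a gamma chain, encoded by Fga, Fgb and Fgg. Fga (NM_001008724) stood at 0.072, -0.36, -0.36 and -0.34 in C and at -0.12, -0.64, -0.64 and -1.01 in M. The slide 2 pair and M 2 were below every C array, while M 1 was above 3 of them. The difference of Fga in M was -0.35 (-0.68 to -0.024, adjusted p = 0.454). Leaving out the 5 arrays with markers of other tissue kept M 3 and M 4 in M and gave -0.59 (adjusted p = 0.211). In 0.5M Fga stood at -0.28, -0.65, -0.24 and -0.35 and in AhR at -0.47, -0.10, -0.37 and -0.58, with differences of -0.13 and -0.13. The difference in M was -0.28 for Fgg and 0.11 for Fgb, neither past the test. Fgb was 0.99, -0.055, -0.058 and -0.23 in M, with M 1 far above the other M arrays, against 0.50, -0.086, -0.12 and -0.10 in C.

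The fibrinogen genes lie side by side in the order Fgg, Fga, Fgb on chromosome 2, and Fga and Fgg moved together more closely than any other pair of the set. The 250 bases before each gene's start (RefSeq, GRCr8, 5′ to 3′ on the gene's strand) are shown for that reason. Capitals mark CTGGGA, known as the core of an interleukin-6 response element of fibrinogen genes, and GTTAAT, a half-site of the hepatocyte factor HNF1, each searched on both strands. No matches overlap in these windows.
Fga, plus strand, chr2:170671919-170672168: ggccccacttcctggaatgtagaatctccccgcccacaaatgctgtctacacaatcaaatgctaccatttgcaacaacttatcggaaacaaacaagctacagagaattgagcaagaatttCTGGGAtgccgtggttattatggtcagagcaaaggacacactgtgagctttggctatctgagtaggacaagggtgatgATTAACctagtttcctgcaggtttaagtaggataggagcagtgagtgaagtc
Fgg, plus strand, chr2:170652833-170653082: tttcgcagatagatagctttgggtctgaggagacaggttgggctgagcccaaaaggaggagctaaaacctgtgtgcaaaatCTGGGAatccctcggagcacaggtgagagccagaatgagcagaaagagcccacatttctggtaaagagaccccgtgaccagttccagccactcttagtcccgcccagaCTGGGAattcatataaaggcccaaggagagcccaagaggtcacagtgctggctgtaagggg
Fgb, minus strand, chr2:170700876-170701125: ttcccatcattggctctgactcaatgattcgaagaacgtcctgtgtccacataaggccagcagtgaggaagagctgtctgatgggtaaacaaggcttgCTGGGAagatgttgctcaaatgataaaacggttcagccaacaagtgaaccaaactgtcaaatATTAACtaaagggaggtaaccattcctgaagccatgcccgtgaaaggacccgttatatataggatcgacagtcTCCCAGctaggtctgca
CTGGGA occurred once upstream of Fga, 125 to 130 bases before the start. It occurred 2 times upstream of Fgg, from 169 and from 61 bases before the start. Fgb held it from 152 bases before the start and, on the other strand, from 17. GTTAAT was found on the opposite strand upstream of Fga, from 52 bases, and of Fgb, from 90 bases, and these letters are not in the Fgg window. Among 27457 RefSeq promoters, 25.78% held CTGGGA and 6.465% GTTAAT. Of the 25 tested genes with a promoter among them, 13 held CTGGGA and 7 held GTTAAT. The TATA box TATAAA, counted too but not marked above, was in 1 of the 25 and in 13.09% of all promoters. A match of letters is not evidence that a factor binds.

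The inhibitors and the fibrinolytic genes were 5, all tested. Antithrombin (Serpinc1) and heparin cofactor II (Serpind1) inhibit thrombin, and alpha-2-antiplasmin (Serpinf2) inhibits plasmin, which is made from plasminogen (Plg). Carboxypeptidase B2 (Cpb2), once activated, slows clot lysis. The differences in M ran from -0.17 for Serpind1 to 0.22 for Serpinc1, with 4 of 5 below 0. Cpb2 (NM_053617) was the highest of the clotting genes in 0.5M. It stood at -0.34, -0.21, -0.28 and -0.20 in C, 0.16, -0.29, -0.059 and -0.13 in 0.5M, -0.47, -0.33, -0.21 and -0.53 in M and -0.41, -0.042, -0.20 and -0.45 in AhR. Of the 0.5M arrays 3 lay above every C array, and the difference was 0.18 (-0.057 to 0.41, adjusted p = 0.785), or 0.093 without 0.5M replicate 1. In M it was -0.13.

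Complement starts in the classical pathway with the proteases C1r and C1s, and in the lectin pathway with the mannose-binding lectins (Mbl1, Mbl2) and their proteases (Masp1, Masp2). Masp2 (NM_172043), the protease that cleaves C4 and C2, had the smallest p of the set in M. It stood at -0.29, -0.28, -0.061 and -0.042 in C and -0.47, -0.53, -0.31 and -0.42 in M, where all 4 arrays were below all 4 C arrays. The difference was -0.27 (-0.44 to -0.095, adjusted p = 0.221), and it was -0.22 and -0.31 within the slides. In 0.5M Masp2 stood at -0.27, -0.52, -0.21 and -0.35 and in AhR at -0.42, -0.11, -0.17 and -0.18, with differences of -0.17 and -0.051. Masp1, its partner protease, was the other gene with all M arrays below all C arrays, at -0.74, -0.91, -0.61 and -0.53 against -0.26, -0.49, -0.32 and -0.42. The Masp1 difference was -0.33 (adjusted p = 0.416), and the other 2 Masp1 probes gave -0.12 and -0.19. That made 2 of 32 genes with M wholly below C, against 2.02% of all transcripts, and 0 of 32 wholly above, against 2.15%.

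Mbl2, which binds sugars on microbes, ran the other way and was the highest gene of the set in both mixture groups. It stood at -0.59, -0.23, -0.16 and -0.69 in C, -0.19, -0.20, 0.026 and -0.31 in 0.5M, -0.24, -0.15, 0.15 and -0.093 in M and -0.35, -0.26, -0.24 and -0.36 in AhR. The difference was 0.33 in M (0.084 to 0.58, adjusted p = 0.310) and 0.25 in 0.5M (adjusted p = 0.751). Of the C arrays, replicates 1 and 4 lay far below replicates 2 and 3. The second lectin, Mbl1, differed by -0.13 in M and 0.058 in 0.5M.

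C1r (NM_001134555) was among the genes with the smallest p in 0.5M and in AhR. Its levels were -0.46, -0.58, -0.73 and -0.39 in C, -1.06, -1.14, -0.51 and -1.01 in 0.5M, -1.11, -0.82, -0.68 and -0.74 in AhR and -0.089, -1.02, -0.68 and -0.66 in M. In 0.5M, 3 of 4 arrays were below every C array and replicate 3 lay within the C range, and M 1 was the highest of all 16 arrays. The difference was -0.39 in 0.5M (-0.75 to -0.029, adjusted p = 0.751), -0.30 in AhR (-0.66 to 0.065) and -0.071 in M. C1s gave -0.36, -0.30 and -0.048.

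The convertase genes tested were C2, C3 and factor B (Cfb), with 2 regulators: factor I (Cfi), which degrades C3b and C4b, and the alpha chain of C4b-binding protein (C4bpa). Below 0 were 4 of 5 in M, 5 of 5 in 0.5M and 4 of 5 in AhR, with medians of -0.19, -0.15 and -0.14. C3, the central component, differed from C by 0.021 in M, -0.11 in 0.5M and -0.041 in AhR, with a 95% interval of -0.41 to 0.46 in M. Cfi (NM_024157) stood at -0.22, -0.49, -0.37 and -0.30 in C, -0.40, -0.63, -0.40 and -0.75 in 0.5M, -0.28, -0.59, -0.58 and -0.69 in M and -0.45, -0.50, -0.64 and -0.48 in AhR. The Cfi differences were alike in size at -0.20, -0.19 and -0.17, and none passed the test (adjusted p = 0.751, 0.544 and 1.00). C4bpa (NM_012516) stood at 0.27, -0.29, -0.45 and -0.47 in C, with replicate 1 alone above 0, -0.26, -0.25, -0.22 and -0.81 in 0.5M, -0.31, -0.66, -0.51 and -0.54 in M and -0.48, -0.32, -0.57 and -0.55 in AhR. Its difference in AhR was -0.24 and, without C replicate 1, -0.10. The 2 probes of C2 disagreed in M, at -0.057 and -0.33, and had opposite signs in AhR, at 0.12 and -0.12. With the second C2 probe all 5 genes would lie below 0 in AhR.

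All 4 tested genes of the membrane attack complex (C6, C8a, C8b, C9) stood below C in M and in 0.5M, and 3 of 4 in AhR, with medians of -0.19, -0.21 and -0.085. None passed the test. C6 (NM_176074), which joins C5b to begin the pore, stood at -0.55, -0.61, -0.66 and -0.85 in C and -1.18, -0.95, -0.82 and -1.36 in M, where 3 of 4 arrays were below every C array. The difference was -0.41 (-0.70 to -0.12, adjusted p = 0.273), and -0.48 and -0.34 within the slides. C6 stood at -0.83, -1.19, -0.72 and -0.98 in 0.5M and -1.07, -0.62, -0.63 and -0.92 in AhR, with differences of -0.26 and -0.14. C8a (NM_001106670) had the smallest p of the set in AhR. It stood at -0.095, -0.35, 0.021 and -0.14 in C, -0.43, -0.57, -0.13 and -0.36 in AhR, -0.59, -0.27, 0.069 and -0.41 in 0.5M and -0.12, -0.54, -0.16 and -0.25 in M, and the difference in AhR was -0.23 (-0.49 to 0.023, adjusted p = 1.00). AhR 3 lay within the C range. The second, dimmer C8a probe gave -0.12 in AhR and, with the opposite sign to the first, 0.12 in 0.5M. In AhR 0 of 32 genes lay wholly below or wholly above C, against 0.966% and 0.989% of all transcripts, and in 0.5M 0 lay wholly above, against 1.42%.

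**Figure D2:**
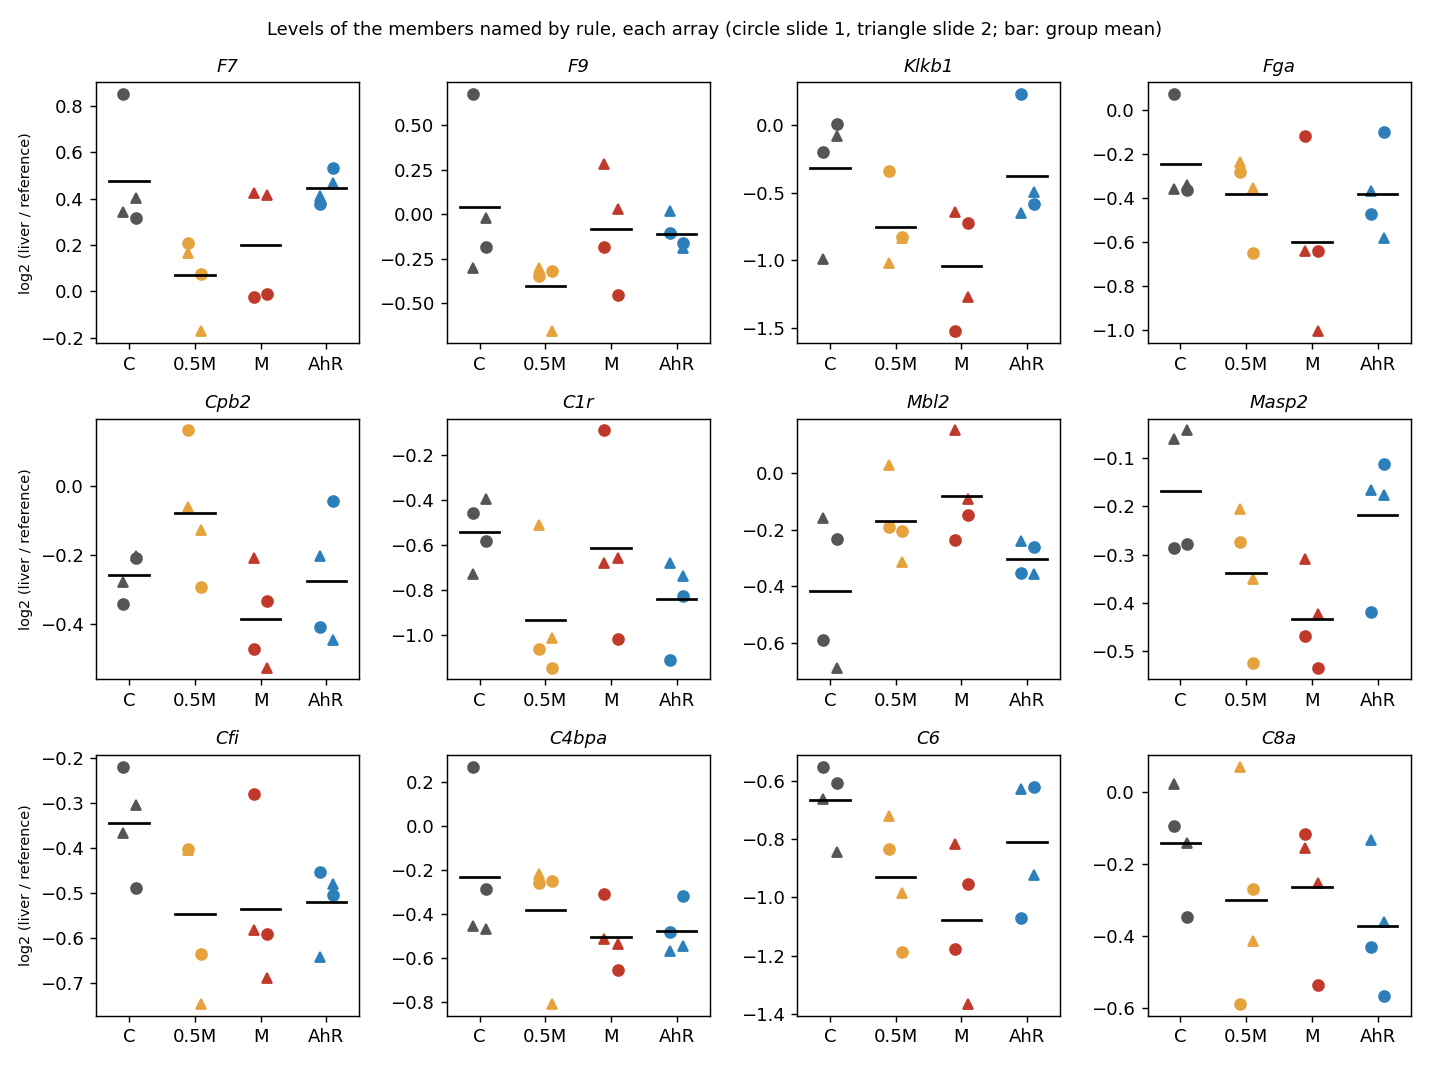
Levels (log2 of liver over reference, vertical axis, own scale in each panel) of Mbl2 and of the genes chosen by the naming rule, on every array of the 4 groups. Circles are slide 1, triangles slide 2 and bars group means. The 0.5M points of F7 and the M points of Masp2 lie wholly below C, and in the other panels every exposed group overlaps C.

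Between the exposed groups the differences were of the same order. M and 0.5M, the 2 doses of one mixture, differed by a median of -0.0080 with 16 genes on each side of 0. M and AhR differed by a median of -0.13, the widest being Klkb1 at -0.66 (adjusted p = 0.347), and 0.5M and AhR by -0.070. The direction of 2 of these medians was not stable. M against 0.5M had 0.078 within slide 1 and -0.093 within slide 2. It had -0.090, with 22 genes below 0, when the 5 arrays with markers of other tissues were left out. M then held M 3 and M 4 only. With the same arrays left out 0.5M against AhR had 0.022, with 14 genes below 0 in place of 22. At an unadjusted p under 0.05 there was 1 of 32 genes in M against 0.5M (6.71% of all transcripts), 3 in M against AhR (9.9%) and 1 in 0.5M against AhR (9.02%).

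Many of the genes went up and down together between arrays of 1 group. After group and slide means were taken out, the median correlation over the 496 pairs of genes was r = 0.36, and 80.8% of pairs were above 0. Over all pairs of transcripts the median was 0.0019 and 50.2% were above 0. The points of each correlation are the same 16 arrays with the same normalization, so these values describe the arrays and carry no test. The genes stood highest most often on M 1 (10 of 32) and C 1 (9), and lowest on M 4 (10) and 0.5M 4 (6). On the muscle-bearing arrays M 2 and 0.5M 4 their median difference from the other arrays was -0.20, and the part of muscle RNA in this was not tested.

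**Figure D3:**
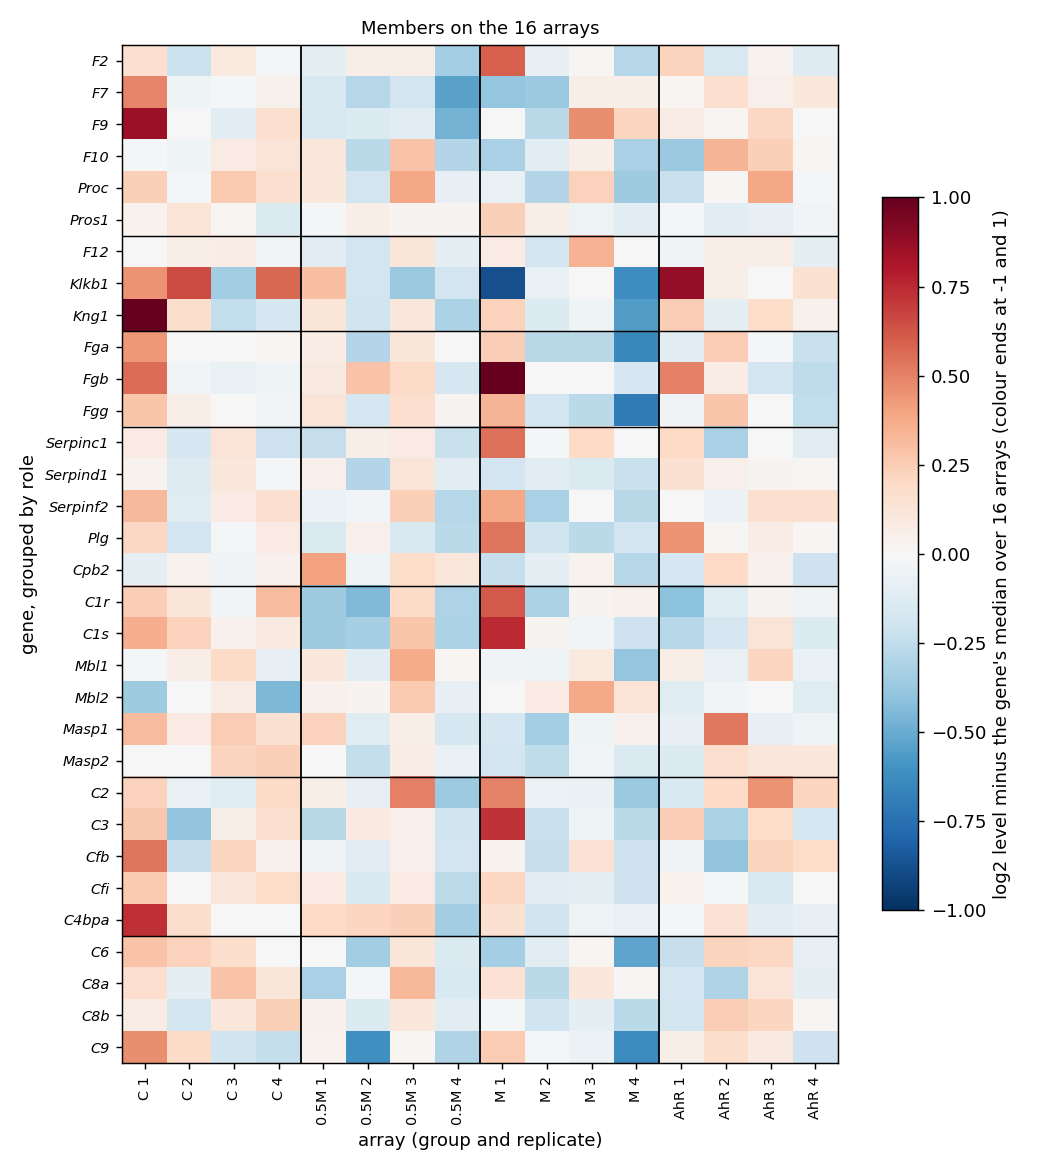
Level of each of the 32 genes (rows, by role) on the 16 arrays (columns, by group), as log2 difference from the gene's own median, red above and blue below. M 1 and C 1 are red for many genes, M 4 and 0.5M 4 blue, and no group is of one colour.

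The closest pair was Fga and Fgg (r = 0.967, Spearman's rho = 0.938). It was 0.966 within slide 1, 0.988 within slide 2 and 0.946 without the 2 arrays farthest from the median of Fga (M 1 and 0.5M 2). Fgb, the third chain, went with them less closely, at r = 0.583 with Fga and 0.584 with Fgg, and the difference between these correlations was not tested. C1r and C1s, which are neighbours in the genome and partners in the C1 complex, had r = 0.878 and rho = 0.776, and r = 0.648 without M 1 and 0.5M 3. F7 and F9 had r = 0.875 (0.791 without C 1 and 0.5M 4), although they lie on different chromosomes, while F7 and its neighbour F10 had r = 0.315. C8a and C8b, also neighbours and parts of one protein, had r = 0.297. F2 and C3, from different cascades, had r = 0.944 and rho = 0.912, and r = 0.892 without M 1 and C 2. Their probes are among the 8 brightest of the set, as is that of Plg, which had r = 0.947 with C3. No rule chose the pairs named here before the values were seen.

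**Figure D4:**
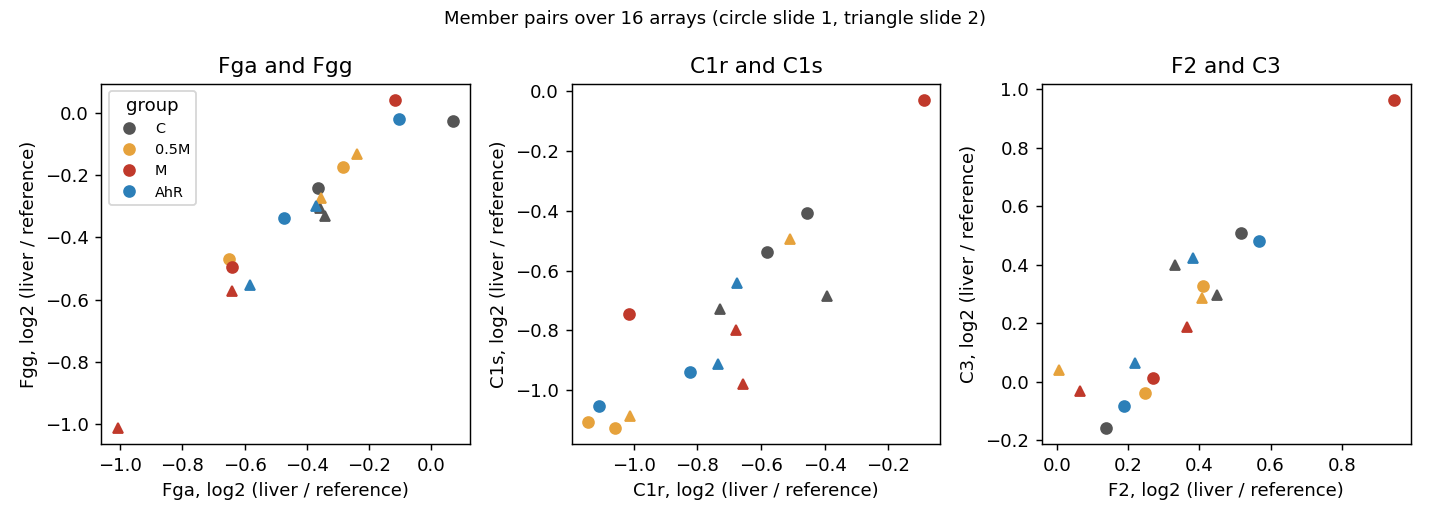
Levels (log2 of liver over reference, both axes) of Fga against Fgg, C1r against C1s and F2 against C3. Each point is 1 of 16 arrays, coloured by group, with circles for slide 1 and triangles for slide 2. Points rise together in all panels, and M 1 is the highest point of the C1r and the F2 panels.

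The brightness of a probe went with part of this pattern. The 8 brightest probes of the set were those of C3, Fgb, F2, Serpinc1, Fgg, Cfb, Fga and Plg, a split made after the values were seen. On M 1, the array with the fewest probes well above background, 6 of these 8 genes and 4 of the other 24 reached their highest level. In M against C the 8 had a median difference of -0.017 with 4 below 0, and the other 24 a median of -0.17 with 21 below 0. The median correlation was 0.60 among the 8 and 0.33 among the 24. The part of array brightness in these values was not tested. With median centring in place of the intensity-dependent loess correction, the M median of all 32 genes was -0.44, where all transcripts had -0.088, the median pair correlation was 0.95, and all 32 genes differed between the slides. With loess 0 of 32 did (limma), where 8.21% of all transcripts were called, and 4 of 32 had an unadjusted p under 0.05, where 25.1% of all transcripts did.

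Relative to the reference, the 32 genes had a median level of -0.23 in C, from -0.86 for C9 to 0.73 for Kng1, with 11 above 0 and 21 below. All 32 were well above background in the reference channel on all 16 arrays, and 31 in the liver channel, the exception being Pros1 with 11 arrays. The loess correction centres the ratio on 0 at each brightness, so a level is relative to transcripts of like brightness, and with median centring the median level in C was -1.14. The dyes were not swapped, so dye and sample cannot be told apart in these levels, but the dye was the same in every group.

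Other genes of the same pathways gave no calls either. Of 20 further coagulation genes 15 were tested and 0 were called in the 6 comparisons (limma), with 0 at an unadjusted p under 0.05 against C, and medians of -0.047 in M, 0.00040 in 0.5M and -0.011 in AhR. The smallest F-test p among them belonged to Kng2, a kininogen gene, at -0.14 in M and 0.17 in AhR. The widest differences in M and in AhR were those of Hrg and lay above C, at 0.26 and 0.40. Of 23 further complement genes 17 were tested and 0 called, with 2, 1 and 1 at an unadjusted p under 0.05 in M, 0.5M and AhR, where 10.2%, 6.55% and 3.73% of all transcripts did, and medians of -0.033, -0.12 and 0.029. There the smallest F-test p belonged to Fcnb, a ficolin of the lectin pathway, at -0.23 in M and -0.22 in 0.5M (adjusted p = 0.492 and 0.751). The widest difference in M was that of C4bpb, the beta chain of C4b-binding protein, at -0.40 (adjusted p = 0.247), with levels of -0.21, -0.55, 0.11 and -0.095 in M wholly below 0.17, 0.21, 0.30 and 0.18 in C. In 0.5M it was that of properdin (Cfp), the stabilizer of the alternative convertase, at -0.40 (adjusted p = 0.701), with 0.12, 0.033, -0.14 and -0.18 wholly below 0.40, 0.29, 0.15 and 0.58. Each was 1 of 17 genes wholly below C, against 2.02% of all transcripts in M and 1.61% in 0.5M. The widest difference of these complement genes in AhR lay above C, at 0.45 for Cpn2. Cpn2 was also the highest of them in M, at 0.23. Of 14 liver transcription factors that drive hepatocyte genes, 12 were tested and 0 called, with 3 (25%), 1 and 1 at an unadjusted p under 0.05, against the same shares of all transcripts. Foxa3, a forkhead factor of hepatocytes, came closest. It stood at 0.13, 0.21, 0.56 and 0.47 in C, 0.086, -0.041, -0.13 and 0.20 in 0.5M, -0.13, -0.048, -0.14 and -0.32 in M and 0.25, 0.12, 0.63 and 0.80 in AhR. All 4 M arrays lay below all C arrays, at a difference of -0.51 (adjusted p = 0.122) from C and -0.61 (adjusted p = 0.0591) from AhR. It was 1 of 3 factors with M wholly below C, where 2.02% of all transcripts were. Onecut1, known as HNF6, had the widest difference, -0.71 (-1.19 to -0.24, adjusted p = 0.233), at -1.04, -0.80, -1.10 and -1.06 in M against -0.78, -0.033, -0.60 and 0.27 in C. It was also at -0.61 in AhR (adjusted p = 1.00). Nr1h4, the bile acid receptor FXR, had -0.42 (adjusted p = 0.165), at -0.79, -0.64, -0.26 and -0.45 against -0.20, 0.13, -0.14 and -0.25. Cebpb was the highest of these factors in each exposed group, at 0.18 in M, 0.15 in 0.5M and 0.37 in AhR. Hrg, C4bpb, Cfp, Cpn2, Onecut1, Nr1h4 and Cebpb were named after their values were seen.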

How the data were processed

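RNA of 16 liver pools was measured on 2-colour Agilent arrays (rn4 design). Per the file headers, the scan files come from Agilent Feature Extraction 10.7.3.1 and hold median spot and background intensity of both channels, a log10 ratio, and quality marks of 0 or 1. A table of values from the authors, deposited beside the scans and compared with them, holds log2 ratios of Cy5 over Cy3. Its further steps are not given in the sources used here. Here signals were corrected with normexp (offset 50) and within-array loess in limma 3.58.1 (R 4.3.3). Median signals were used, where the plan named means. Control and flagged spots got no weight, flagged spots were left out, and spots of a probe were averaged. Probes well above background on at least 4 arrays were kept, with the brightest probe per gene. Symbols came from RefSeq transcript numbers (18004 of 30367 probes). One limma model of group means and slide gave 6 comparisons and the F-test, two-sided, with Benjamini-Hochberg adjustment over 13146 transcripts. The model was tested on simulated data. The 95% intervals cover the spread between arrays only, and precision is limited by how many arrays there are.

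Genes with values on every array are, for each comparison with C, the 3 with the smallest p, and in each role the gene with the smallest F-test p. Of each other list, the gene with the smallest F-test p is named unless some passed. Mbl2, Masp1 and further genes were named after their values were seen. The members and lists were chosen with earlier results of these data known. The alternatives changed background correction, normalization, filter, probe rule, slide term, weights and arrays used.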

Additional observations from a re-analysis of the deposited data

Results flagged for a closer look

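In 10 of 128 sets of 4 arrays (32 genes in 4 groups), 1 array stood apart from the other 3 by more than Dixon's 95% critical value for the gap as a share of the set's range. Chance flags about 5% of sets, and genes that move together are flagged together. In C, replicate 1 was above the rest for F7 (0.85, next 0.40), Fga (0.072, next -0.34) and Fgb (0.50, next -0.086). In M, replicate 1 was above the rest for Fgb (0.99, next -0.055) and Plg (0.68, next -0.050). Plg was also apart on AhR 1 (0.59, next 0.22). Masp1 was apart on AhR 2 (-0.048, next -0.61), an array with 2 of the 4 pancreas markers tested above all arrays but M 1. C1s was higher on 0.5M 3 (-0.50, next -1.09). On 0.5M 4, which carried muscle markers, F9 (-0.66, next -0.35) and C4bpa (-0.81, next -0.26) were lower than on the other 0.5M arrays. The part of these markers in the values was not tested.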

How the results depend on the processing

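The count of 0 called genes held in all 6 comparisons under each of 34 alternatives and in the F-test under each of 33. The medians against C kept their sign under every alternative run. The M median went to -0.44 with median centring. Leaving out 1 array at a time, the medians ranged from -0.24 to -0.081 in M, from -0.20 to -0.061 in 0.5M and from -0.12 to -0.00074 in AhR, in each case weakest without C 1. The count of genes that differed between the slides was 32 with median centring, 1 in the authors' deposited value table and 0 to 1 with an array left out. The median level in C was -1.14 with median centring and -0.16 with the scanner software's own ratios. The median pair correlation was 0.95 with median centring and 0.70 on slide 2 alone. The cause was not tested. Counts over all transcripts in M against C ranged from 1 with median centring to 65 with array weights. They ran from 0 to 3 in 0.5M against C and from 0 to 1 in AhR against C. Between exposed groups they ran from 0 to 7 in M against 0.5M, 0 to 63 in M against AhR and 0 to 5 in 0.5M against AhR. With so few calls 0 of 32 stayed near the background, so its repeats are no evidence of no change. The labels give no basis for pairing arrays by number, and of the 6 pairs of groups 3, 3, 6 and 4 correlated above 0.1 for numbers 1 to 4, short of every pair. That 9 of 16 arrays correlated best with their own number is a hint from the data, not from the design. With the replicate block in place of the slide term 0 of the 32 genes were called, and over all transcripts 41 in M against C, 7 in M against 0.5M and 5 in 0.5M against AhR. The alternatives without the muscle arrays and without the 5 arrays with markers of other tissues were chosen after seeing the data.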
